A study of Mus musculus with 10 samples.

Results

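The integrated stress response and its transcription factor Atf4 were followed through 37 genes in ribosome footprints of mouse embryonic stem cells. The 37 genes were the rows of the footprint count table whose symbols belong to a list of Atf4, its partner regulators and its known targets. All 37 were found among the 11011 genes of the table, and all 37 passed the filter on low counts that left 10978 genes tested. The cells were of the E14 line, derived from a blastocyst of 129/Ola background, and every group was grown on gelatine in serum with LIF, the cytokine that keeps these cells from differentiating. The groups were knockouts of Dgcr8, of Drosha, of Dicer and of both Ago1 and Ago2 (the Ago knockout below), and unmodified wild-type (WT) cells, with 2 libraries each and 10 in all. Dgcr8 and Drosha make the first cut of microRNA precursors, Dicer makes the second, and Ago proteins carry the finished microRNA to its targets. Cycloheximide was added briefly in every group to stall ribosomes, and the RNA inside monosomes was sequenced. The labels do not say whether a knockout was 1 clone, which part of a gene was deleted, or whether libraries came from separate cultures, and all p-values therefore describe the spread among these libraries alone.

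The integrated stress response begins when kinases that sense amino acid shortage, unfolded protein, viral RNA or haem deficiency phosphorylate the translation factor eIF2. General initiation then falls, while messages with short upstream reading frames, such as those of Atf4, Atf5, Ddit3 and Ppp1r15a, are translated better. Atf4 pairs with C/EBP proteins, binds composite sites called CARE, and activates genes of amino acid synthesis, amino acid uptake and tRNA charging as well as feedback inhibitors. Footprint counts reflect both how much messenger RNA is present and how it is translated. They also include any footprints on upstream reading frames, which counts per gene do not separate.

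Letters that match the CARE motif were found in the promoter windows of 10 of 32 genes, and the sequences below show what such matches look like. The CARE motif was searched as TGATGNAAN, on both strands, from 250 bases before to 50 bases after each RefSeq gene start (GRCm38.p6). Of the 37 genes 32 had such a window, and the 10 are 31.2% of these, against 229 of 8730 matched genes of the table (2.62%) and 3.95% of all 32851 windows. The cAMP response element TGACGTCA, a palindrome whose letters cannot match where CARE matches, was found in 1 of the 32 (3.12%), that of Ppp1r15a, against 3.79% of the matched genes. A match is a run of letters and not a measured binding site. Shown are the sites of an amino acid enzyme, a regulator, an effector, both mitochondrial carbon and proline enzymes and the cystine carrier, each 5′ to 3′ on the strand that reads as the motif, with the motif in capitals.
Asns, chr6:7693214-7693242, minus strand: cccagccacaTGATGAAACttcccgcacg
Atf3, chr1:191183426-191183454, plus strand: gcggacttggTGATGCAAGtgcgagaagg
Chac1, chr2:119351038-119351066, minus strand: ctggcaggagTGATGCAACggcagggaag
Pck2, chr14:55540152-55540180, minus strand: tgtaagatacTGATGTAACtttgaaggct
Pycr1, chr11:120643833-120643861, minus strand: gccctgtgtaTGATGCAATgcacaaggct
Slc7a11, chr3:50443643-50443671, plus strand: ggctgcatgaTGATGCAAAttctccaggt
The Asns site began 23 bases before the gene start, and that of Slc7a11 48 bases before it. Slc7a11 held a second match 66 bases before its start, on the other strand. Nupr1, Vldlr, Slc1a4 and Trib3 also held the motif.

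Total counts ran between 1754710 and 80850950 per library. CPM below are counts scaled to a common library size, the usual depth-corrected unit, with library sizes adjusted by TMM. The targeted genes were checked first. Drosha had 24.3 and 34.5 CPM in its knockout against 177 and 178 CPM in WT, Dicer1 had 15.8 and 22.1 CPM in its knockout against 122 and 124 CPM, and Ago2 had 14.9 and 6.61 CPM in the Ago knockout against 81.9 and 81.9 CPM. Ago1, at 27.0 and 10.7 CPM in the Ago knockout against 14.7 and 14.3 CPM in WT, was not lower in both. Dgcr8 was higher, not lower, in the libraries labelled Dgcr8 knockout, at 145 and 146 CPM against 32.7 and 33.1 CPM in WT. It was above WT in the other knockouts too. Drosha libraries had 169 and 197 CPM, Dicer libraries 64.5 and 76.1, and Ago libraries 74.6 and 63.5. Its footprint level therefore does not settle the label, and the Dgcr8-labelled libraries are called by their label throughout. The pluripotency list, with 14 of 14 markers measured, summed to between 5957 and 7553 CPM over all 10 libraries, so the labelled cell type was present in each. The sum does not show single markers, of which 1 was called higher and 1 lower in each of Drosha, Dicer and Ago. In Dicer libraries Klf2 had 702 and 782 CPM against 142 and 146 CPM in WT. Klf4 had 17.4 and 22.1 CPM there against 135 and 158 CPM in WT. WT libraries held far more footprints of primitive endoderm, an early lineage such cultures can form. Its 12 measured markers summed to 7322 and 2039 CPM in the Dgcr8-labelled libraries, 2418 and 2132 in the Drosha, 1663 and 1244 in the Dicer and 2376 and 1434 in the Ago knockout, against 11495 and 12421 CPM in WT. Of the 12, the adjusted test called 0, 6, 11 and 10 lower in these 4 groups, and Gata6 and Sox17 were at or under 4.37 CPM in each Drosha, Dicer and Ago library. Markers listed for other lineages moved too. Of 10 listed trophectoderm markers 5 were measured, Tfap2c and the keratins Krt7, Krt8, Krt18 and Krt19. Cdx2, Eomes, Gata3, Elf5 and Hand1 were not. The 5 summed to 157 and 228 CPM in the Dgcr8-labelled libraries and 377 and 375 in the Drosha knockout. They summed to 857 and 618 CPM in the Dicer and 184 and 205 in the Ago knockout, against 149.5 and 182 CPM in WT. The test called 2 higher in Drosha and 4 in Dicer. Tfap2c itself had 59.1 and 83.85 CPM in Dicer against 45.3 and 46.5 CPM in WT, so a trophectoderm lineage is not shown. Both measured markers of 2-cell-like cells, Zscan4d and Tmem92, were called higher in Drosha, Dicer and Ago, at summed levels of 15.1 to 71.2 CPM against 1.29 and 0.332 CPM in WT. Of 4 fibroblast markers 3 were called lower in Dicer. The part of these cells in the results below was not tested, and fewer cells of a type cannot be told apart from less RNA per cell.

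**Figure D1:**
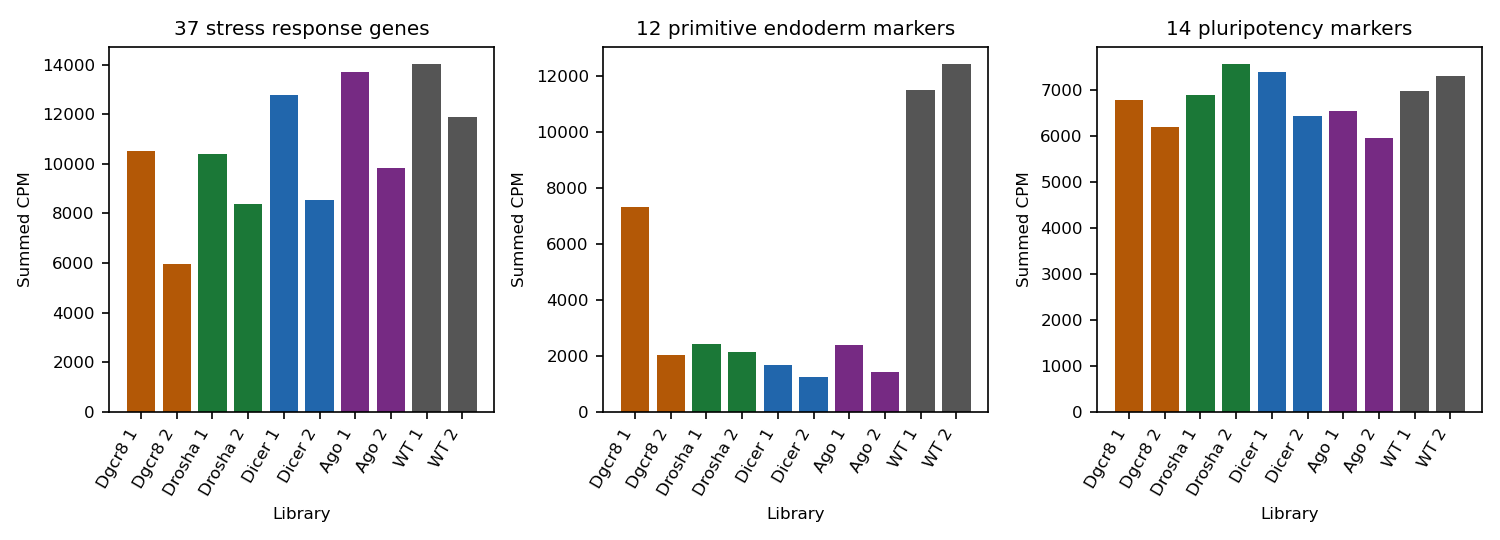
Summed CPM in each of the 10 libraries (bars), for the 37 stress response genes, 12 primitive endoderm markers and 14 pluripotency markers. The stress response sum was lowest in the second Dgcr8-labelled library (5949 CPM), and endoderm markers were highest in both WT libraries. The pluripotency sum lay between 5957 and 7553 CPM, with single markers called in either direction.

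Log2 fold changes against WT were negative for 32, 29, 27 and 26 of the 37 genes in the Dgcr8-labelled, Drosha, Dicer and Ago groups, and 0 or 1 gene passed the test in each. In the first Ago library 16 of the 37 were below both WT libraries, against 41.9% of all genes. There 15 of the 37 were above both, a share that was not computed for all genes. The 37 genes summed to 10513 and 5949 CPM in the Dgcr8-labelled libraries, 10401 and 8365 in the Drosha and 12770 and 8527 in the Dicer knockout. They summed to 13696 and 9844 CPM in the Ago knockout, against 14010 and 11891 CPM in WT. Every knockout library except the first of the Ago and Dicer knockouts was below both WT libraries. The second Dgcr8-labelled library stood apart, with a median log2 difference from the WT mean of -2.14 over the 37 genes, where the other 7 knockout libraries had medians between -0.82 and 0.00. In that library 32 of the 37 genes were below both WT libraries, against 42.3% of all genes. Its total of 4955916 counts was not the smallest.

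**Figure D2:**
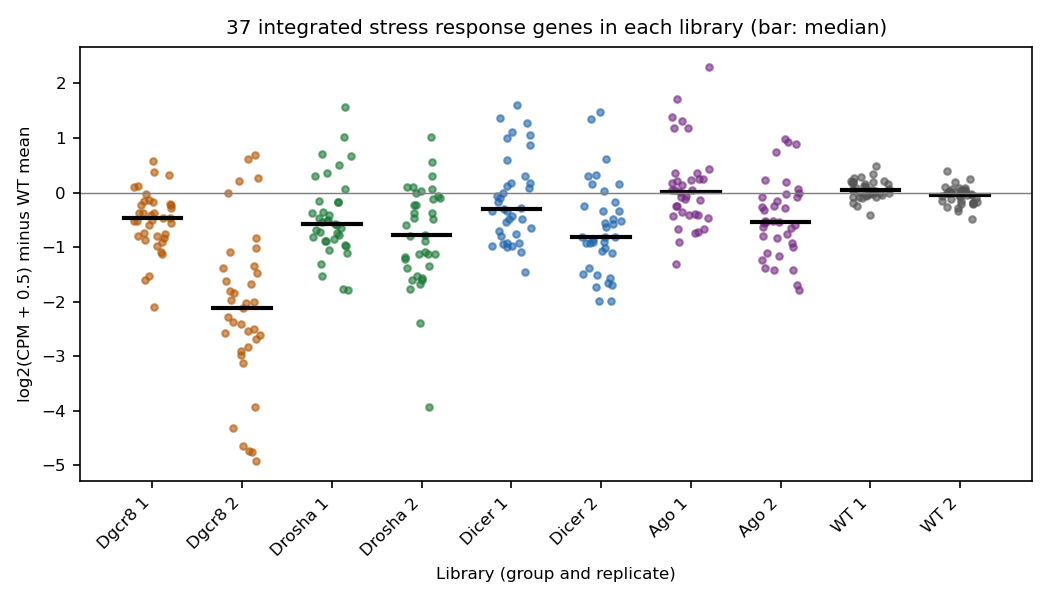
Each point is 1 of the 37 genes in 1 library, as log2(CPM + 0.5) minus the WT mean, with the median as a bar. Medians given here used a prior count of 2 in place of 0.5 CPM, so they can differ slightly from the bars. They were -0.48 and -2.14 in the Dgcr8-labelled libraries and -0.58 and -0.79 in Drosha. The others were -0.31 and -0.82 in Dicer, 0.00 and -0.54 in Ago, and 0.04 and -0.04 in WT.

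In the Dgcr8-labelled libraries against WT, 32 of the 37 genes had a negative log2 fold change, where 48.3% of all genes did, and the median was -0.99, against 0.02 over all genes. Of the 37, 18 were below -1, against 4.49% of all genes, and 31 were lower in both libraries than in either WT library, against 22.9%. Both libraries were above both WT libraries for 2 genes, against 22%. None passed edgeR's quasi-likelihood test at an adjusted p of 0.05 (0 of 37), a threshold that 0.0729% of all genes passed. At an unadjusted p under 0.05, 16 were lower and 0 higher, against 4.71% and 5.10% of all genes. DESeq2 called 4 (Ddit4, Stc2, Phgdh and Pck2), where it called 160 of all genes, and limma-voom 0, where it called 15. In Drosha, Dicer, Ago and WT 22, 30, 29 and 23 of the 37 were lower in the second library than in the first. Of all genes 51.7%, 52.8%, 53.8% and 50.3% were. Median log2 differences of the 37 were -0.20, -0.53, -0.69 and -0.09. The Dgcr8-labelled libraries differed more, with 33 of the 37 lower in the second than in the first, against 51.8% of all genes. Their median log2 difference was -1.62 over the 37, against -0.03 over all genes. Without the second library the median was -0.50 with 0 calls, and without the first it was -2.15 with 13 calls, where 107 of all genes were called and 1 library was left in the group.

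In the Drosha knockout 29 of the 37 had a negative log2 fold change, against 50.4% of all genes, with a median of -0.62 against -0.01. Of the 37, 12 were below -1, against 8.78% of all genes. Both knockout libraries were below both WT libraries for 25, against 27.9% of all genes, and above both for 3, against 25.9%. The adjusted test called 0 of 37 with edgeR, where 3.44% of all genes were called. At an unadjusted p under 0.05, 7 were lower and 0 higher, against 8.13% and 11.1% of all genes. DESeq2 called 3 (Ddit4, Stc2 and Slc3a2), where it called 972 of all genes, and limma-voom 0, where it called 111. Leaving either Dgcr8-labelled library out of the shared fit gave Stc2 a log2 fold change of -2.07 in Drosha.

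In the Dicer knockout the median was -0.45 against 0.00 over all genes, and 27 of 37 values were negative, against 50.2%. One gene of the 37, Gpt2, was called, and it was higher, where 11.1% of all genes were called and 7.35% were called higher. At an unadjusted p under 0.05, 6 were lower and 1 higher, against 11.9% and 15.1%. DESeq2 called 4 (Ddit4, Psph and Slc3a2 lower, Gpt2 higher), where it called 1874 of all genes. With only the Dicer and WT libraries in the fit, 16 of the 37 were called, 14 lower and Gpt2 and Ppp1r15a higher, where 3224 of all genes were called against 1220 with all libraries. Without the first or the second Dgcr8-labelled library in the shared fit, log2 fold changes were -1.425 for Ddit4, -1.21 for Psph and 1.48 for Gpt2. Both libraries were below both WT libraries for 22 genes, against 34.6% of all genes, and above both for 5, against 32.7%. Values under -1 were seen for 6 genes, against 10.2% of all genes.

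In the Ago knockout the genes were closest to WT, with a median of -0.23 against 0.04 and 26 of 37 negative, against 47.4% of all genes. The adjusted test called 0 of 37 with edgeR, where 2.88% of all genes were called. At an unadjusted p under 0.05, 1 was lower and 3 higher, against 7.94% and 11.8% of all genes. DESeq2 called Gpt2 as higher, where it called 932 of all genes, and limma-voom called 0, where it called 942. Both libraries were below both WT libraries for 15 genes, against 26.1%, and above both for 4, against 27.2%, and 3 genes were below -1, against 6.25%. The 2 Ago libraries did not show the same level, with a median of -0.55 without the first and 0.00 without the second, and 30 and 18 negative values.

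Set against WT as the mean of the 4 knockouts, 30 of 37 had a negative log2 fold change, against 50.2% of all genes, and the median was -0.68 against 0.00. Ddit4 and Stc2 fell, 2 of 37 called, where 7.07% of all genes were called and 3.26% were called lower. All 8 knockout libraries were below both WT libraries for 12 genes, against 8.05% of all genes, and above both for 0, against 8.15%. At an unadjusted p under 0.05, 10 were lower and 0 higher, against 10.9% and 12.8% of all genes, and 7 were below -1, against 5.12%. These comparisons share the 2 WT libraries. Without the first Dgcr8-labelled library the mean comparison called 20 of 37, where 1100 of all genes were called against 776 with all libraries. Without the first WT library it called 0 of 37 and 95 of all genes, and without the second 0 of 37 and 3 of all genes.

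**Figure D3:**
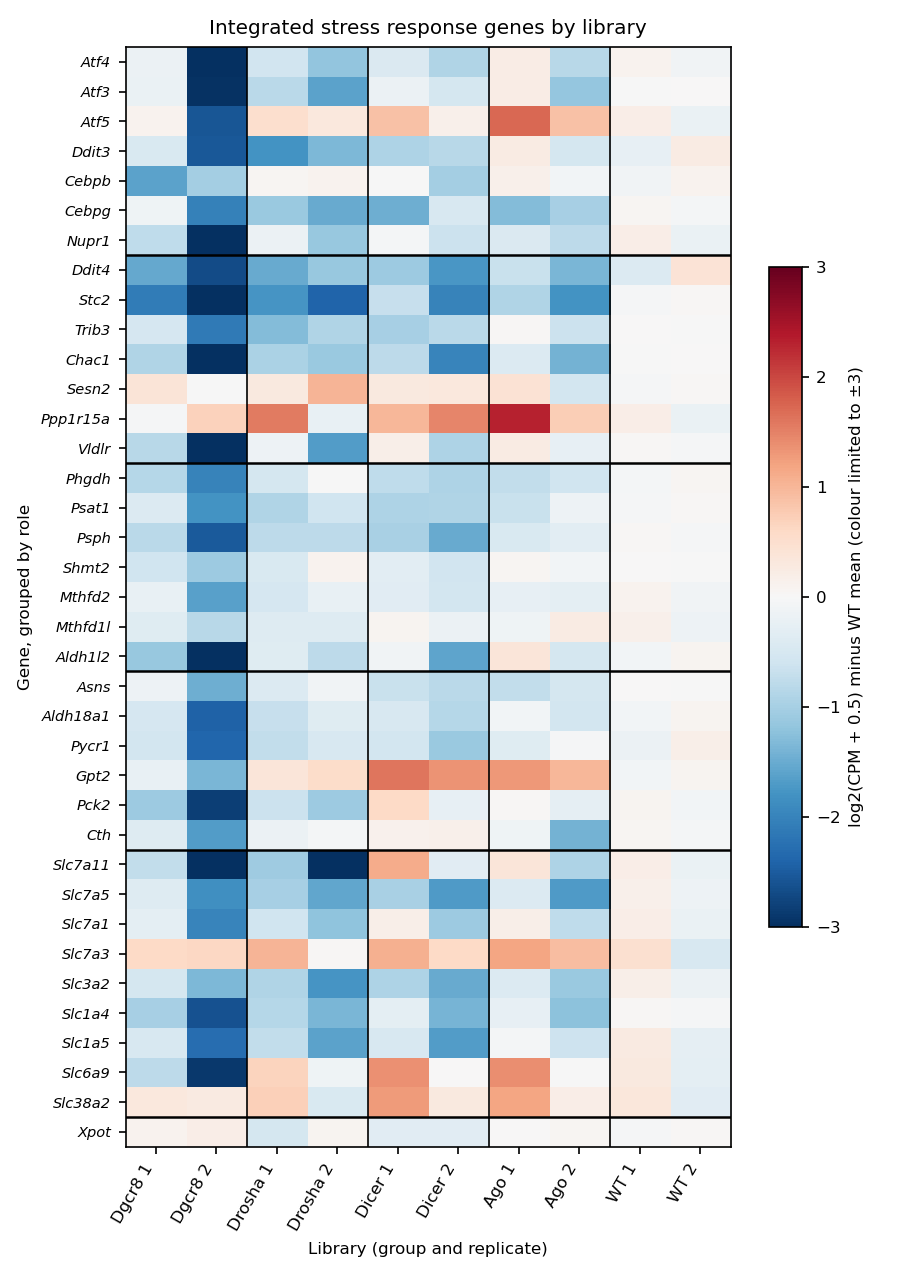
Log2(CPM + 0.5) minus the WT mean for the 37 genes (rows, grouped by role) in the 10 libraries (columns), with the colour limited to 3 in either direction. Blue is lower and red is higher; the second Dgcr8-labelled library is the darkest blue column, and Gpt2, Ppp1r15a and Slc7a3 are red in the Dicer and Ago libraries.

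The regulators include Atf4 itself, its bZIP partners and relatives, and the small chromatin protein Nupr1. With all libraries and no block edgeR called none of the 7 in any of the 11 comparisons. With a block on the library number it called Atf5 as higher in Ago than in Dgcr8-labelled libraries (3.14, adjusted p = 0.0440, edgeR). The second Ago library was alone in its block there. In the same pair of groups limma-voom called Cebpb as higher in Ago (1.60, adjusted p = 0.0218). Atf4 had 199 and 25.3 CPM in the Dgcr8-labelled libraries, 149.8 and 97.9 in the Drosha, 166 and 119 in the Dicer and 260.5 and 126 CPM in the Ago knockout, against 242 and 207 CPM in WT. All knockout libraries but the first of the Ago knockout were below WT, and the second Dgcr8-labelled library was far below its partner. The log2 fold changes of Atf4 were -0.99 ± 0.67, -0.86 ± 0.68, -0.65 ± 0.67 and -0.22 ± 0.67 in the 4 groups (SE, n = 2 libraries each, all ± values on log2 fold changes below likewise), with adjusted p of 0.69, 0.53, 0.57 and 0.90 by edgeR.

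Atf3, a stress-induced repressor of the same family, was low throughout, with 4.28 and 0.199 CPM in the Dgcr8-labelled libraries, 2.64 and 1.31 in Drosha libraries, 4.35 and 3.31 in Dicer libraries and 5.94 and 1.96 CPM in Ago libraries, against 4.98 and 5.02 CPM in WT. Ddit3, the pro-apoptotic factor CHOP, had 10.03 and 1.99 CPM in the Dgcr8-labelled libraries, 3.69 and 5.24 in Drosha libraries, 7.12 and 7.72 in Dicer libraries and 16.7 and 9.66 CPM in Ago libraries, against 11.7 and 16.8 CPM in WT. Both genes were below both WT libraries in each Dgcr8-labelled, Drosha and Dicer library, and overlapped with WT in the Ago knockout. Ddit3 shares 3.97% of its exonic bases with Mars on the other strand, and a second annotation of the same name overlaps it.

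Atf5, a factor controlled by upstream reading frames like Atf4, had 9.11 and 0.996 CPM in the Dgcr8-labelled libraries, 12.1 and 10.5 in Drosha libraries, 15.8 and 9.38 in Dicer libraries and 28.8 and 15.9 CPM in Ago libraries, against 9.68 and 7.26 CPM in WT. It stood out among the regulators in being above both WT libraries in the Drosha and Ago knockouts, with log2 fold changes of 0.42 ± 0.72 and 1.40 ± 0.68 that did not pass (adjusted p = 0.80 and 0.28, edgeR). Cebpg, a dimer partner of Atf4, had 19.1 and 4.78 CPM in the Dgcr8-labelled libraries, 9.50 and 6.99 in Drosha libraries, 7.32 and 14.9 in Dicer libraries and 8.21 and 10.3 CPM in Ago libraries, against 21.8 and 20.3 CPM in WT. All 8 knockout libraries were below both WT libraries for Cebpg, without a call in the mean comparison (log2 -1.07 ± 0.42, adjusted p = 0.14, edgeR).

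Cebpb, which acts with Atf4 and Ddit3 in amino acid stress, had 5.02 and 7.77 CPM in the Dgcr8-labelled libraries, 16.9 and 17.5 in Drosha libraries, 16.0 and 7.72 in Dicer libraries and 18.0 and 15.3 CPM in Ago libraries, against 15.0 and 17.5 CPM in WT. It was low in both Dgcr8-labelled libraries and the second Dicer library, and overlapped with WT elsewhere. Of its exonic bases 20.7% lie opposite Tmem189. Nupr1 had 31.4 and 2.19 CPM in the Dgcr8-labelled libraries, 47.5 and 24.0 in Drosha libraries, 50.8 and 34.2 in Dicer libraries and 39.3 and 30.7 CPM in Ago libraries, against 60.8 and 46.8 CPM in WT. The groups overlapped for Nupr1 in the Drosha and Dicer knockouts.

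The effectors held both genes that fell in the mean of the knockouts. Ddit4, also called REDD1, restrains the growth kinase mTORC1. It had 66.8 and 29.7 CPM in the Dgcr8-labelled libraries, 67.5 and 88.7 in Drosha libraries, 91.8 and 57.9 in Dicer libraries and 122 and 74.7 CPM in Ago libraries, against 147 and 258 CPM in WT. Every knockout library was below both WT libraries, which themselves differed. Ddit4 fell by 1.47 ± 0.31 on the log2 scale in the mean of the 4 knockouts (adjusted p = 0.0177, edgeR), with single log2 values of -2.06 in Dgcr8-labelled, -1.37 in Drosha, -1.43 in Dicer and -1.04 in Ago that did not pass. The mean call was lost without the first WT library (adjusted p = 0.0515) and without the second (-1.01, adjusted p = 0.416).

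Stc2, a secreted glycoprotein induced by stress, had 46.9 and 7.57 CPM in the Dgcr8-labelled libraries, 58.6 and 38.005 in Drosha libraries, 124 and 50.2 in Dicer libraries and 107 and 57.9 CPM in Ago libraries, against 197 and 207 CPM in WT. Here too no knockout library reached WT. Stc2 fell by 1.85 ± 0.45 on the log2 scale in the mean comparison (adjusted p = 0.0337, edgeR). The call was lost without either WT library (adjusted p = 0.177 and 0.303), without the second Drosha library (0.0508), without the second Dicer library (0.0505) and with the Dgcr8-labelled group left out of the mean (-1.52, adjusted p = 0.0691). Primitive endoderm markers were lower in the same 8 libraries, at summed levels of 1244 to 7322 CPM against 11495 and 12421 CPM in WT, and their part in Ddit4 and Stc2 was not tested.

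Trib3, a pseudokinase that feeds back on Atf4, had 44.998 and 14.5 CPM in the Dgcr8-labelled libraries, 25.8 and 34.5 in Drosha libraries, 32.2 and 36.4 in Dicer libraries and 66.6 and 40.9 CPM in Ago libraries, against 64.5 and 64.4 CPM in WT. Chac1, which degrades glutathione, had 35.3 and 1.99 CPM in the Dgcr8-labelled libraries, 34.3 and 30.6 in Drosha libraries, 38.4 and 16.5 in Dicer libraries and 50.4 and 24.8 CPM in Ago libraries, against 66.8 and 67.1 CPM in WT. Chac1 was below WT in all 8 knockout libraries and Trib3 in 7 of 8, the first Ago library being the exception, and neither passed. The Chac1 value of the second Dgcr8-labelled library rests on 10 counts.

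Ppp1r15a, or GADD34, is the phosphatase subunit that reverses eIF2 phosphorylation, and it did not follow the other effectors. It had 6.13 and 10.4 CPM in the Dgcr8-labelled libraries, 19.5 and 5.24 in Drosha libraries, 13.1 and 18.2 in Dicer libraries and 32.9 and 10.8 CPM in Ago libraries, against 7.28 and 5.35 CPM in WT. Both Dicer and both Ago libraries were above both WT libraries, with log2 fold changes of 1.29 ± 0.64 and 1.79 ± 0.63 that did not pass (adjusted p = 0.22 and 0.14, edgeR). Sesn2, an amino acid sensor that also restrains mTORC1, had log2 fold changes between 0.02 (Ago) and 0.70 (Drosha). Vldlr, a lipoprotein receptor, had values between -1.68 (Dgcr8-labelled) and 0.02 (Ago).

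**Figure D4:**
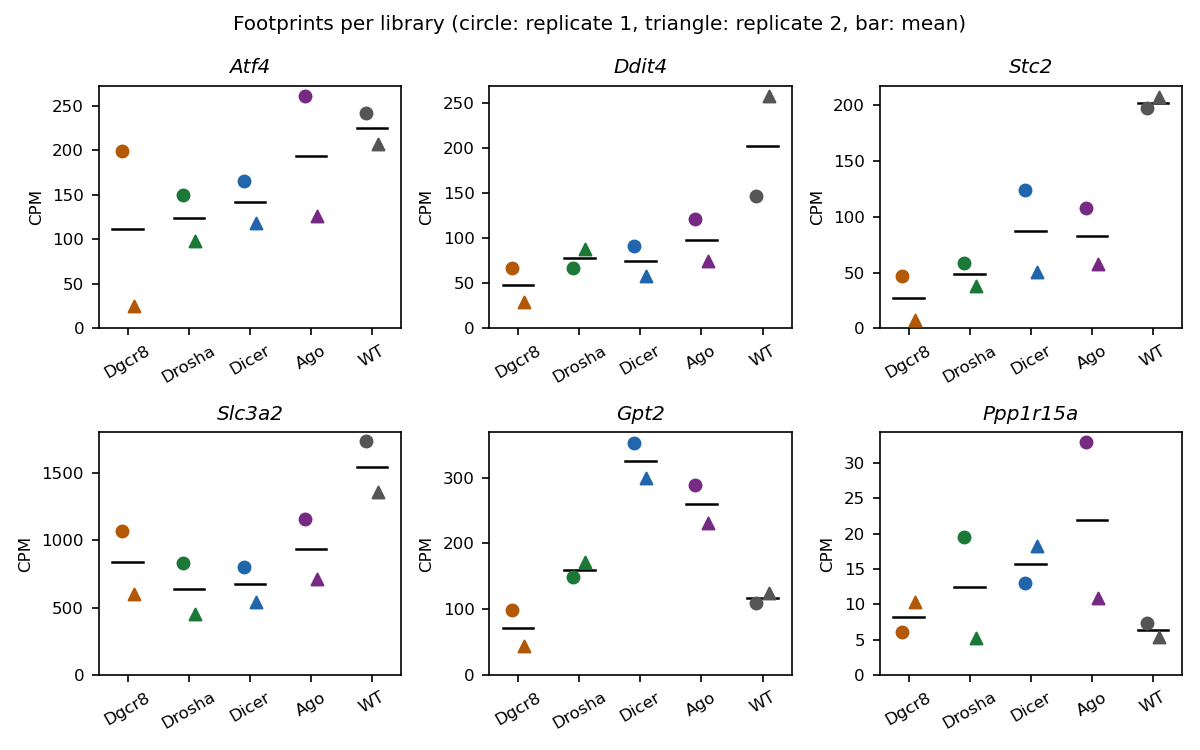
CPM of 6 genes in each library (circle, replicate 1; triangle, replicate 2; bar, mean) for the 4 knockout groups and WT. Ddit4, Stc2 and Slc3a2 have every knockout library below both WT libraries, Gpt2 has the Dicer and Ago libraries above WT, Ppp1r15a likewise, and Atf4 overlaps with WT in the Ago group.

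Serine, made from a glycolysis intermediate by Phgdh, Psat1 and Psph, feeds glycine and the mitochondrial one-carbon units that Shmt2, Mthfd2, Mthfd1l and Aldh1l2 handle. Against WT edgeR with all libraries and no block called none of the 7 enzymes. With a block on the replicate or the library number it called Psph lower in Dicer (adjusted p = 0.0466 and 0.0389, edgeR). Psph was also called lower in the mean under these blocks (0.0416 and 0.0457). With only the Dicer and WT libraries in the fit, edgeR called Phgdh, Psat1 and Psph lower. DESeq2 called Phgdh as lower in the Dgcr8-labelled libraries (-1.31, adjusted p = 0.0478) and Psph as lower in Dicer (-1.20, adjusted p = 0.0455). All 7 had negative log2 fold changes in the Dgcr8-labelled, Drosha and Dicer groups, with medians of -0.95, -0.39 and -0.62. In the Ago knockout 6 of 7 were negative, with a median of -0.27. Psph had 133 and 40.2 CPM in the Dgcr8-labelled libraries, 134 and 134 in Drosha libraries, 118 and 81.1 in Dicer libraries and 168 and 186 CPM in Ago libraries, against 236 and 227 CPM in WT. All 8 knockout libraries were below WT (log2 -0.95 ± 0.32 in the mean comparison, adjusted p = 0.098, edgeR), and Psph shares 10.4% of its exonic bases with a Cct6a transcript of the other strand. Psat1 had 567 and 218 CPM in the Dgcr8-labelled libraries, 407 and 499.7 in Drosha libraries, 397 and 404 in Dicer libraries and 479 and 684 CPM in Ago libraries, against 746 and 772 CPM in WT. It too was below WT in all 8, with -0.75 ± 0.29 (adjusted p = 0.15, edgeR).

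Phgdh, the first enzyme of the pathway, had 51.3 and 22.9 CPM in the Dgcr8-labelled libraries, 64.9 and 92.6 in Drosha libraries, 55.0 and 49.1 in Dicer libraries and 56.3 and 61.8 CPM in Ago libraries, against 90.2 and 97.3 CPM in WT. Its groups overlapped in the Drosha knockout. The largest departure of the other 4 was that of Aldh1l2 in the Dgcr8-labelled libraries (-1.96 ± 0.81), which came from 17.5 and 0.797 CPM against 36.8 and 40.8 CPM in WT. Over Shmt2, Mthfd2 and Mthfd1l, log2 values lay between -0.82 and 0.06 in all 4 groups.

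Among the other enzymes Gpt2 rose, the only gene of the 37 that edgeR called higher against WT with all libraries and no block. Gpt2, the mitochondrial enzyme that makes alanine and 2-oxoglutarate from pyruvate and glutamate, had 99.1 and 44.6 CPM in the Dgcr8-labelled libraries, 149 and 171 in Drosha libraries, 353 and 299 in Dicer libraries and 289 and 232 CPM in Ago libraries, against 109 and 124 CPM in WT. It was above WT in Drosha, Dicer and Ago and below WT in both Dgcr8-labelled libraries. In the Dicer knockout Gpt2 rose by 1.48 ± 0.35 on the log2 scale, or 2.80-fold (adjusted p = 0.0207, edgeR), and in the Ago knockout the difference was 1.16 ± 0.35 (adjusted p = 0.094). The Dicer call was lost without the first Dicer library (adjusted p = 0.131), the second (0.0587), the first WT library (0.149) or the second (0.142). The measured trophectoderm markers, Tfap2c and keratins, were higher in sum in the same Dicer libraries, at 857 and 618 CPM against 149.5 and 182 CPM in WT. Their part in Gpt2 was not tested. Pck2, the mitochondrial enzyme that turns oxaloacetate into phosphoenolpyruvate, had 250.4 and 75.1 CPM in the Dgcr8-labelled libraries, 344 and 252 in Drosha libraries, 811 and 453 in Dicer libraries and 554 and 448 CPM in Ago libraries, against 571 and 505 CPM in WT. It overlapped with WT in Dicer and Ago and was below WT in the others.

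Asns, which makes asparagine and is a classical Atf4 target, had 1369.5 and 547 CPM in the Dgcr8-labelled libraries, 1152 and 1423 in Drosha libraries, 965 and 868 in Dicer libraries and 914 and 1049 CPM in Ago libraries, against 1526 and 1520.0 CPM in WT. All 8 knockout libraries were below WT, with -0.57 ± 0.29 in the mean comparison (adjusted p = 0.26, edgeR). Aldh18a1 and Pycr1, which make proline, and Cth, which makes cysteine, had 11 of 12 log2 values below 0 in the 4 groups, between -1.19 and 0.14.

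Carriers bring amino acids into the cell, and several of them work in pairs. Slc3a2 is the heavy chain that Slc7a5, the carrier of leucine and other large neutral amino acids, and Slc7a11, the cystine carrier, need at the membrane. Slc3a2 had 1069.6 and 605 CPM in the Dgcr8-labelled libraries, 828 and 453 in Drosha libraries, 803 and 542 in Dicer libraries and 1157 and 715 CPM in Ago libraries, against 1736 and 1358 CPM in WT. Slc7a5 had 944 and 341 CPM in the Dgcr8-labelled libraries, 619 and 416 in Drosha libraries, 624 and 379 in Dicer libraries and 929 and 380.2 CPM in Ago libraries, against 1366 and 1103 CPM in WT. Every knockout library was below both WT libraries for both chains. In the mean comparison the log2 values were -1.02 ± 0.30 for Slc3a2 and -1.10 ± 0.37 for Slc7a5, short of the threshold (adjusted p = 0.061 and 0.10, edgeR), while DESeq2 called both (adjusted p = 0.0164 and 0.0409). Slc7a11 was near the limit of detection, with 4.10 and 0 CPM in the Dgcr8-labelled libraries, 3.17 and 0 in Drosha libraries, 16.0 and 5.52 in Dicer libraries and 9.27 and 3.53 CPM in Ago libraries, against 8.30 and 6.14 CPM in WT. A count of 0 allows up to 0.605 CPM in the second Dgcr8-labelled library and 1.34 CPM in the second Drosha library, for counting error only.

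Slc7a3, an arginine and lysine carrier of embryonic cells, had 1057 and 1079.6 CPM in the Dgcr8-labelled libraries, 1431 and 721 in Drosha libraries, 1466 and 1072 in Dicer libraries and 1594 and 1343 CPM in Ago libraries, against 983 and 503 CPM in WT. It was above both WT libraries in all but the second Drosha library. Without a block it passed in no comparison (0.98 ± 0.40 in Ago, adjusted p = 0.20, edgeR). Slc38a2, a carrier of small neutral amino acids, had log2 fold changes between 0.20 (Drosha) and 0.82 (Dicer) and overlapped with WT in every group. Slc1a4, Slc1a5 and Slc7a1, which carry neutral or cationic amino acids, had 12 of 12 values below 0, between -1.58 and -0.23. The glycine carrier Slc6a9 had -1.48 in the Dgcr8-labelled libraries and 0.30 to 0.84 in the other groups, and 27.8% of its exonic bases lie opposite Ccdc24. Xpot, which exports tRNA from the nucleus, had values between -0.34 and 0.16.

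**Figure D5:**
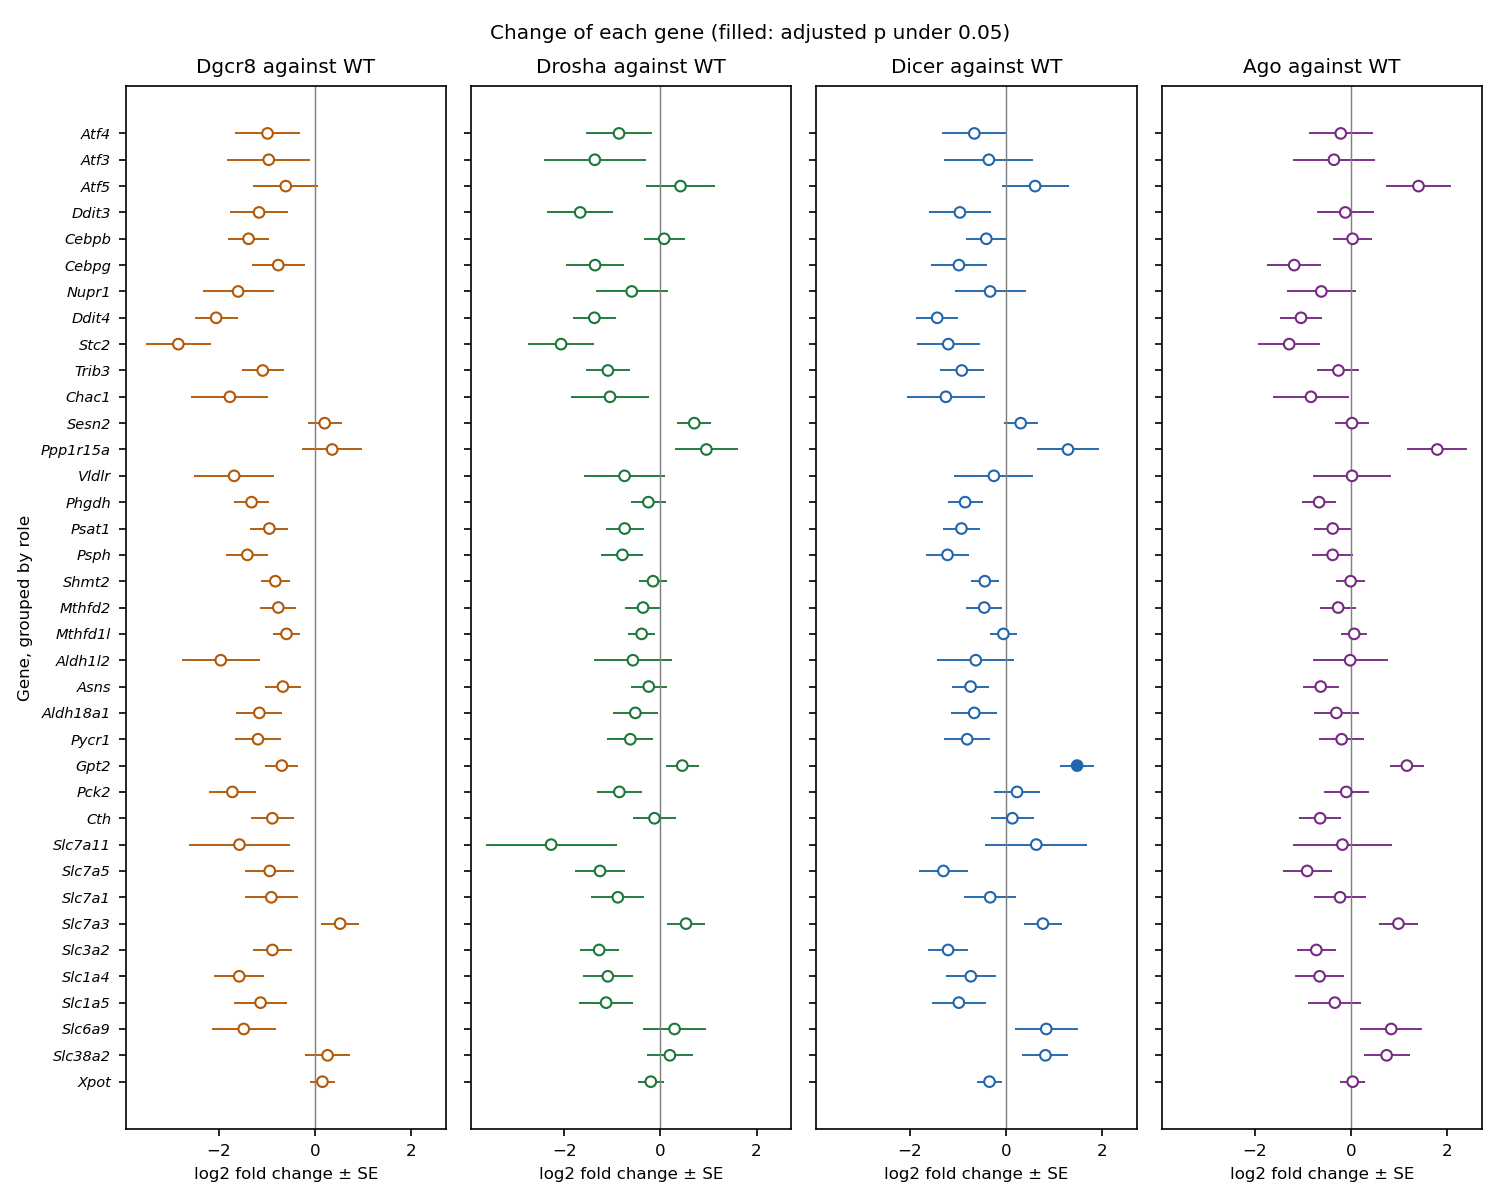
Log2 fold change against WT with its SE for each of the 37 genes in the 4 knockout groups (n = 2 libraries each). A filled point has an adjusted p under 0.05 (edgeR); the only one is Gpt2 in the Dicer panel, at 1.48.

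Per kilobase of coding length, which allows genes to be ranked, Slc3a2 (913 CPM per kb), Asns (905), Slc7a5 (804) and Slc38a2 (803) led in WT, with SDs of 158, 2.57, 121 and 261 (n = 2), so that these neighbours did not differ beyond their spread. Slc38a2 ranked 1 in all 4 knockout groups, at 963, 922, 1422 and 1339 CPM per kb in Dgcr8-labelled, Drosha, Dicer and Ago, and Slc3a2 ranked 4, 6, 4 and 4. Gpt2 ranked 11 in the Dicer knockout and 24 in WT. Among the 32 genes with a promoter window, the 10 with CARE had median log2 fold changes of -1.57, -0.95, -0.54 and -0.31 in Dgcr8-labelled, Drosha, Dicer and Ago, and the 22 without it -0.90, -0.37, -0.44 and -0.17, given as a description.

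Between knockouts edgeR with all libraries and no block called Gpt2 and Pck2. In Dicer against Dgcr8-labelled libraries 2 of 37 genes were called, Gpt2 and Pck2, both higher in Dicer, where 4.07% of all genes were called and 3.19% called higher. Gpt2 was higher in the Dicer knockout, at 353 and 299 CPM against 99.1 and 44.6 CPM (log2 2.17 ± 0.36, adjusted p = 0.0105, edgeR), and this call was lost without the first Dicer library (2.03, adjusted p = 0.0997). Pck2, at 811 and 453 CPM against 250.4 and 75.1 CPM (1.95 ± 0.49, adjusted p = 0.0461), kept its call under 8 of 19 alternatives. In Ago against Dgcr8-labelled libraries Gpt2 alone was called, 1 of 37 where 0.483% of all genes were called and 0.355% called higher, at 289 and 232 CPM against 99.1 and 44.6 CPM (1.85 ± 0.35, adjusted p = 0.0481), and this call held under 9 of 19. Without the second Dgcr8-labelled library, Gpt2 in Dicer was still called (1.72, adjusted p = 0.0267), while Pck2 in Dicer (1.34, adjusted p = 0.132) and Gpt2 in Ago (1.39, adjusted p = 0.0981) were not. DESeq2 also called Slc6a9 as higher in Dicer (2.36, adjusted p = 0.00484) and in Ago (2.33, adjusted p = 0.0117) and Pck2 as higher in Ago (1.60, adjusted p = 0.0261), each against Dgcr8-labelled libraries. The other 4 pairs had 0 of 37 called by edgeR without a block. Of all genes 0.501% were called in Drosha against Dgcr8-labelled and 0.00911% in Dicer against Drosha. The share was 0.0455% in Ago against Drosha and 0.547% in Ago against Dicer. At an unadjusted p under 0.05 these 4 pairs had 5, 2, 1 and 0 genes, all higher in the group named first, against 6.80%, 4.06%, 4.94% and 5.98% of all genes higher. DESeq2 and limma-voom called none of the 37 in these 4 pairs. With a block on the replicate or the library number, edgeR called Slc6a9 as higher in Drosha than in Dgcr8-labelled libraries. Its log2 values were 2.03 and 2.00 (adjusted p = 0.0251 and 0.0301, edgeR).

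Genes upstream of Atf4 were not called against WT. Of 12 genes for eIF2 kinases, their cofactors and phosphatases, 0 were called by edgeR in any comparison with WT, and Eif2ak3, the kinase PERK, had 92.4 and 56.4 CPM in the Dgcr8-labelled libraries, 82.8 and 42.4 in Drosha libraries, 98.7 and 61.8 in Dicer libraries and 107 and 90.1 CPM in Ago libraries, against 84.8 and 81.4 CPM in WT. Between knockouts 2 of the 12 were called. Eif2ak2, the kinase PKR, was higher in Dicer than in Dgcr8-labelled libraries (1.78 ± 0.32, adjusted p = 0.0126, edgeR). It had 49.4 and 45.2 CPM against 16.2 and 10.96 CPM, with 25.6 and 26.5 CPM in WT between them. Impact, an inhibitor of the kinase Gcn2, was lower in Ago than in Dgcr8-labelled libraries (-1.46 ± 0.26, adjusted p = 0.0379, edgeR). It had 70.7 and 66.3 CPM against 173 and 203 CPM. WT had 71.9 and 69.4 CPM, so the Ago libraries were near WT and the Dgcr8-labelled libraries above it. Of 13 genes for eIF2, its exchange factor eIF2B and related initiation factors, 0 were called in the 11 comparisons. Of 13 aminoacyl-tRNA synthetases, which charge tRNAs and include Atf4 targets, 0 were called in the 11, and the medians against WT were -0.40, -0.41, -0.39 and -0.26 in the 4 groups.

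Neighbouring pathways held from 0 to 3 calls per list in each knockout against WT. All were in Drosha, Dicer and Ago, where 3.44%, 11.1% and 2.88% of all genes were called. Of 12 other one-carbon genes Shmt1, the cytosolic counterpart of Shmt2, fell in the Dicer knockout, to 123 and 161 CPM against 343 and 433 CPM in WT (-1.46 ± 0.30, adjusted p = 0.0120, edgeR). Of 15 other amino acid genes, Cbs, which makes cystathionine, fell in the Dicer (-1.24) and Ago (-1.73) knockouts and the carrier Slc7a6 in Dicer (-1.49). Of 19 genes of the chaperone arm of the unfolded protein response, Sdf2l1 fell in Drosha (-1.29) and Dicer (-1.80) and Dnajb9 rose in Dicer (1.83). Of 11 Nrf2 pathway genes, Nqo1 (2.06), Nfe2l2 (1.06) and Keap1 (1.22) rose in Dicer. Of 12 hypoxia targets, the collagen hydroxylase P4ha2 fell in Drosha (-2.32), Dicer (-2.40) and Ago (-2.29), and P4ha1 in Drosha (-2.35). In Dicer Ankrd37 fell (-3.50) and the demethylase Kdm3a rose (1.26). Of 12 mTORC1 genes Rheb, its activator, fell (-1.12) and Deptor, its inhibitor, rose (1.01) in Dicer. Of 15 p53 targets Phlda3 (-1.77) and Plk2 (-1.93) fell in Ago, and of 8 mitochondrial stress genes 0 were called. Primitive endoderm markers were low in these 3 groups too, and the part of those cells in the falls was not tested.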

How the data were processed

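Ribosome footprints of 10 mouse embryonic stem cell libraries were analysed. The authors deposited whole-number read counts per gene without normalization, 1 column per library; Trimmomatic, Bowtie2 and the builds mm10 (GRCm38) and dm6 (BDGP6) are named, per the submitters' processing notes. The counting tool and strand setting are not given in the sources used here, so reads of overlapping genes on opposite strands cannot be told apart. Columns were matched to samples by the library number in both. The Ago columns carry other replicate numbers than the titles, which were used. Per the labels' protocols Drosophila spike-ins were added; the table held mouse genes alone.

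All counts entered 1 edgeR 4.0.16 quasi-likelihood fit (R 4.3.3; TMM, filterByExpr, 5 residual degrees of freedom), 2-sided, with Benjamini-Hochberg adjustment over 10978 genes in each of 11 comparisons at 0.05. The SE divides the log2 fold change by the root of its F statistic. Total counts of 1754710 to 80850950 put a floor of 3 counts at 0.0371 to 1.71 CPM. PCR copies are not separate molecules, so floors cover counting error only. Scripts were tested on simulated data. DESeq2 1.42.0, limma 3.58.1 (voom), other scalings and filters, blocks, and leaving out libraries served as alternatives.

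The 37 genes and the 16 comparison lists were chosen with earlier results of these data known. Values per library are given for the 7 regulators, for Asns, Trib3, Chac1, Ppp1r15a, Ddit4, Stc2, Psat1, Phgdh and Slc7a11, for every gene past the threshold and for the 5 with the smallest p in each comparison with WT; the others by range and count, with Aldh1l2, Eif2ak3 and Shmt1 added as examples after their values were seen. Gene positions and coding lengths are from GENCODE M21 on GRCm38, promoter sequences from RefSeq on GRCm38.p6.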

Additional observations from a re-analysis of the deposited data

Results flagged for a closer look

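Gpt2 and Pck2 were picked out because knockouts differed from each other for them by a direct test. Gpt2 was higher in the Dicer knockout than in the Dgcr8-labelled libraries by 2.17 on the log2 scale (adjusted p = 0.0105, edgeR). The same gene was higher in the Ago knockout than in the Dgcr8-labelled libraries by 1.85 (adjusted p = 0.0481, edgeR). Pck2 was higher in the Dicer knockout than in the Dgcr8-labelled libraries by 1.95 (adjusted p = 0.0461, edgeR). All 3 comparisons share the Dgcr8-labelled libraries, whose second member was low for most of the 37 genes. Dgcr8 footprints in these libraries were above WT, as in the other knockouts, and do not settle the label. With 2 libraries per group, no single library could be tested as an outlier.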

How the results depend on the processing

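No named gene that was called changed sign under any alternative. The median of the 37 genes in Ago did, to 0.0012 without the second Ago library. A block on the library number, in which that same library was alone, gave 0.13. RLE size factors, the absence of a filter and a stricter filter of at least 10 counts in every group mean left every count of calls against WT within 1.5 times. With unscaled totals 2 genes were called in Dicer, where 1233 of all genes were called. With DESeq2 the calls against WT were 4 for Dgcr8-labelled libraries, 3 for Drosha, 4 for Dicer, 1 for Ago and 4 for the mean, and 6 over the knockout pairs. Of all genes DESeq2 called 160, 972, 1874, 932 and 1444 in these comparisons with WT. With only the groups compared in the fit the calls among the 37 were 1 in Drosha, 16 in Dicer and 1 over the pairs. Of all genes 565 and 3224 were then called in Drosha and Dicer. The labels name no pairing by replicate number, and each group has only 2 numbers. Deviations of same-numbered libraries correlated between 0.0610 and 0.287 over all genes and between -0.0491 and 0.527 over the 37, in the 10 pairs of groups. With the replicate block 1, 4, 6 and 2 genes were called in Dgcr8-labelled, Drosha, Dicer and Ago, 7 in the mean and 8 over the pairs. Of all genes 14, 770, 1877 and 738 were then called in the 4 groups, and 1410 in the mean. A block on the library number, with cuts chosen here after 31 and 41, gave 1, 4 and 6 in Dgcr8-labelled, Drosha and Dicer. Of all genes 33, 951 and 2168 were called there. Library 52, the second Ago library, was alone in its block, so the Ago values rest on the first, with 12 negative. The mean had 8 calls and the pairs 12, which include that Ago estimate, and 1634 of all genes were called in the mean. Of the 6 Dicer calls 5 were lower under either block. Both blocks called Slc3a2 (adjusted p = 0.00294 and 0.00859, edgeR) and Slc7a5 (0.00530 and 0.0168) lower in the mean. The replicate block called Gpt2 and Slc7a3 higher in Ago (adjusted p = 0.0491 and 0.0470, edgeR). Leaving out 1 library at a time, where a lone library is assumed to vary like the other groups, moved the calls between 0 and 13 in Dgcr8-labelled, 0 and 1 in Drosha, 0 and 3 in Dicer, 0 and 1 in Ago, 0 and 20 in the mean and 0 and 8 over the pairs. The medians then lay between -2.15 and -0.50 for Dgcr8-labelled libraries, -0.79 and -0.58 for Drosha, -0.82 and -0.33 for Dicer and -0.55 and 0.0012 for Ago. The 13, 20 and 8 came without the first Dgcr8-labelled library, which left the low second one alone. The cause was not tested for any of these settings. Depth limits the lowest genes, since 5 of the 37 had under 10 counts in the second Dgcr8-labelled library.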
